A study of Homo sapiens with 2 samples.

Results

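The genes of BCL2L1 and its family were examined in chromatin immunoprecipitation sequencing (ChIP-seq) with an antibody to DEK, a chromatin protein of the nucleus known to bind DNA and histones. The cells were 786-O, a line established from a human renal carcinoma. The 10 members were the anti-apoptotic genes BCL2L1, BCL2, MCL1, BCL2L2 and BCL2A1 and the pro-apoptotic genes BAX, BAK1, BCL2L11, BBC3 and PMAIP1, out of 19970 protein-coding genes on chromosomes 1 to 22 and X. Their peaks were chosen by position, as those overlapping the RefSeq span of the gene plus 10 kb each side, here called the window. The set was proposed with the peaks of BCL2L1 already known, so its peak counts are given as a description with no test. Both samples were DEK precipitations from 786-O cells labelled as negative controls with a wild-type genotype, 2 replicates of 1 group. The descriptions also carry the name Cas9, and it is not stated whether the cells or the antibody step served as the negative control. Neither cells with altered DEK nor an input library was analysed here. Nothing in the labels ties the replicates to separate cultures, so their spread may be of technical origin.

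The proteins of the BCL2 family decide whether the outer mitochondrial membrane is opened in apoptosis. BAX and BAK1 are the effectors that form pores in that membrane and release cytochrome c. The anti-apoptotic members BCL2L1 (BCL-XL), BCL2, MCL1, BCL2L2 (BCL-W) and BCL2A1 (BFL-1) bind and hold them back, and the BH3-only proteins BCL2L11 (BIM), BBC3 (PUMA) and PMAIP1 (NOXA) bind the anti-apoptotic members in turn.

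The windows of the 10 members spanned 555 kb in all and held 24 of 19015 peaks of replicate 1 and 20 of 24457 peaks of replicate 2. Where a peak of one replicate overlapped one of the other, by 1 bp or more, both were joined into a shared region, which gave 15 of the 12590 shared regions of the series. BCL2L1 held 7 of the 15, BBC3 held 2, and BCL2, MCL1, BAX, BAK1, BCL2L11 and PMAIP1 held 1 each, while BCL2L2 and BCL2A1 held none. In all, 8 of the 10 members had a shared region, against 32.9% of all protein-coding genes with the same windows. At least 1 peak of replicate 1 lay in the windows of 8 members, against 43.5% of all genes. For replicate 2 it was 9 members, against 49.7%. Since the peaks were in view when the set was proposed, nothing is read from these counts.

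Only 1 of the 15 regions lay over the stretch of 250 bases before a RefSeq start of a member, and that was at BAK1. MCL1 and BCL2L2 have no start in the table used. The stretch is shown here with that of the 2 RefSeq starts of BCL2L1, which had no peak of either replicate over them although the gene held the most regions. Sequences are from RefSeq (GRCh38.p14), minus strand, read 5′ to 3′ towards the start, and capitals mark the GC box GGGCGG on either strand.
BAK1, chr6:33580277-33580526: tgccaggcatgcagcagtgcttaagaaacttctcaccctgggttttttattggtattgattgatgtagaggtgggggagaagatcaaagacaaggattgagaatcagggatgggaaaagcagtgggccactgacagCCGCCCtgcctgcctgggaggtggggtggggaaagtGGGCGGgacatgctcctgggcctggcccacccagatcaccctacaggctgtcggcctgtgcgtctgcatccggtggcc
BCL2L1, inner start, chr20:31722869-31723118: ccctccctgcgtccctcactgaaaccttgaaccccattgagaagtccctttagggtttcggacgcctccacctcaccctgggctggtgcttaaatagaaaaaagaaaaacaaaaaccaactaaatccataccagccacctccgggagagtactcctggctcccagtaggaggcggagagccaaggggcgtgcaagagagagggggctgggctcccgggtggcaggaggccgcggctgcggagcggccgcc
BCL2L1, outer start, chr20:31723964-31724213: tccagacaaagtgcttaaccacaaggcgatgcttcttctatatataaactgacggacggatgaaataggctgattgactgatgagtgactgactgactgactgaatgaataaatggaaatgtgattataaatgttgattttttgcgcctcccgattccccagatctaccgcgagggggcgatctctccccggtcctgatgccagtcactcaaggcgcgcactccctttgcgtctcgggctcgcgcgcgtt
The BAK1 stretch held 2 GC boxes, 1 on each strand, and 5 CpG, and 58.0% of its bases were G or C. Neither BCL2L1 stretch held a GC box. The inner one had 12 CpG, with 60.4% G or C, and the outer one 17 CpG, with 50% G or C. Over all 22131 protein-coding starts in the table the median was 16 CpG and 62% G or C.

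Of the members, 8 had a start in the promoter table, with 9 starts in all. Letters of 6 motifs were counted on both strands in the 250 bases before each. GGGCGG was present at 4 of the 9 starts, those of BAX, BAK1, BCL2L11 and PMAIP1, against 53.7% of all protein-coding starts. CCAAT was present at 4 of 9, those of BAX, BAK1, BCL2L11 and BBC3, against 32.7%. TTGG, which overlaps CCAAT on the opposite strand, was present at 5 of 9 against 82.4%, and ACGTG at 2 of 9 against 20.2%. TATAAA was present at 2 of 9 against 9.0%, and TGACTCA at 1 of 9 against 3.45%. A match describes the letters and is no evidence of binding.

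**Figure D1:**
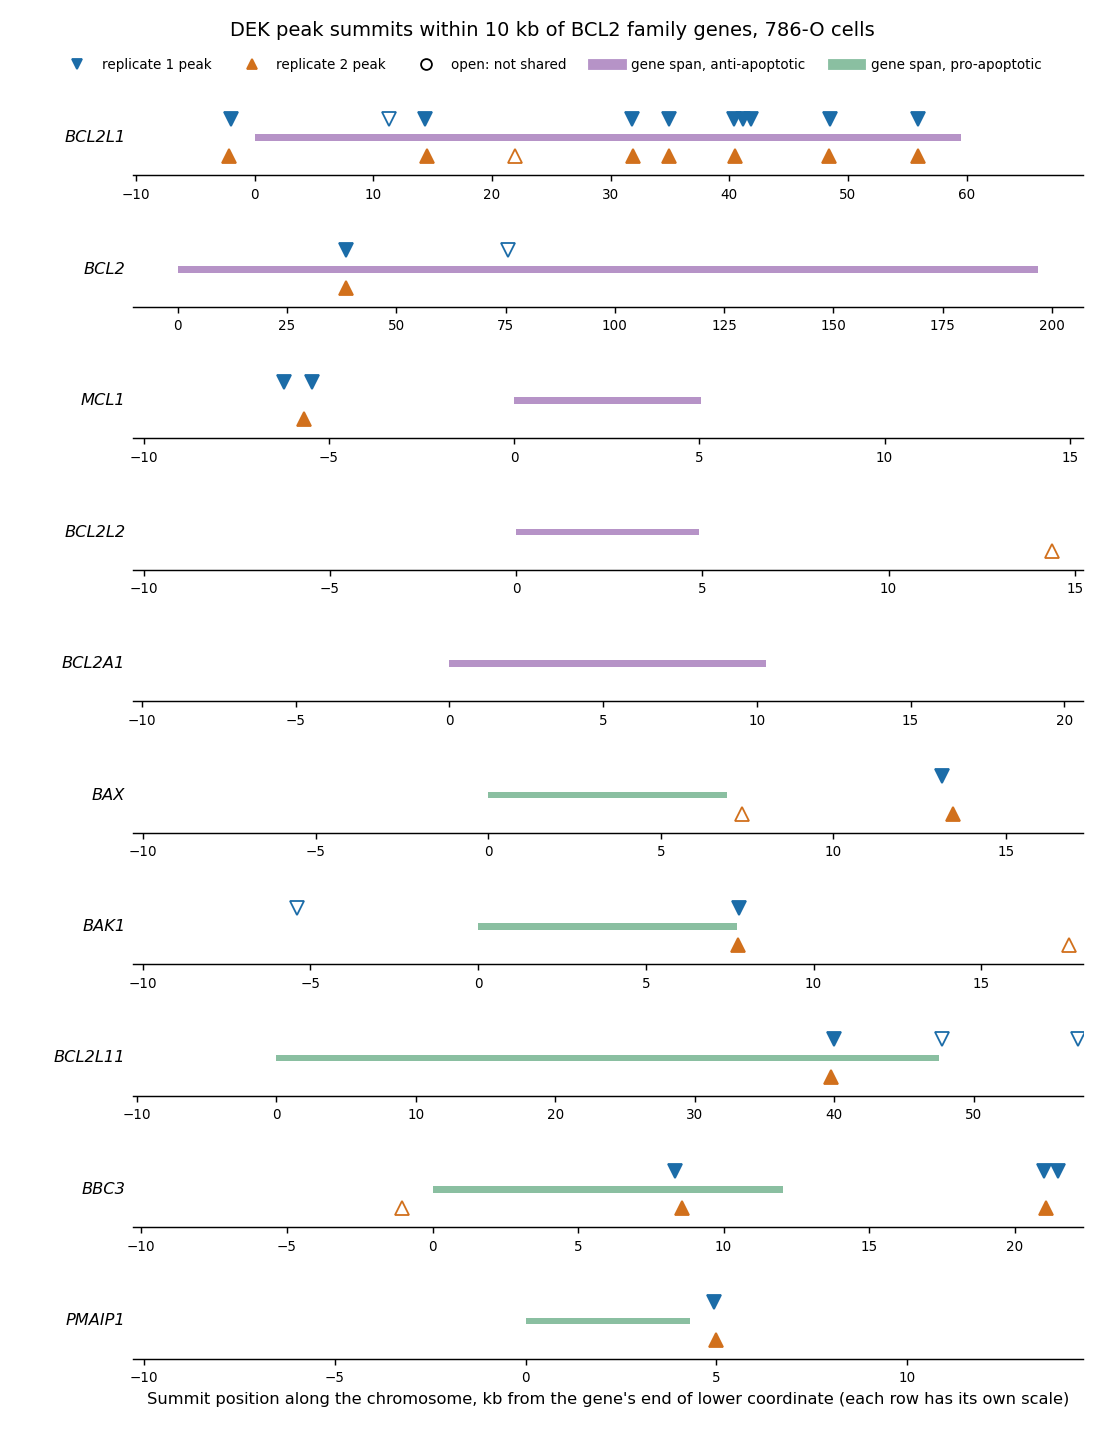
Summits of DEK peaks along each member, in kb from the gene's end of lower coordinate, with replicate 1 above and replicate 2 below the bar of the gene span. Filled symbols are peaks that overlapped a peak of the other replicate and open symbols are those that did not. BCL2L1 held 7 shared regions, 6 of them inside the gene, and BCL2A1 held no peak.

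BCL2L1, whose main product BCL-XL keeps BAX and BAK1 inactive, had the densest window. The gene lies on chromosome 20 from 31664452 to 31723963 (GRCh38, minus strand, 59.5 kb), and its window held 10 peaks of replicate 1 and 8 of replicate 2. These came to 12.6 and 10.1 peaks per 100 kb, and the 7 shared regions to 8.80 per 100 kb (95% exact Poisson interval 3.54 to 18.1, counting error only). All protein-coding windows pooled, with a region counted for each window it touched, had 0.668 shared regions per 100 kb. The density of BCL2L1 ranked 154 of 19970 genes, and 0.591% of all genes had at least 7 shared regions in their window. Among the 2568 genes with a window length within 20% of that of BCL2L1, 8 had at least 7 (0.312%), and the median was 0.

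The 7 regions ran along the gene from just past its 3′ end to within a few kb of its starts. The region nearest the starts lay at 31719672 to 31720587, with summits at 31720353 in replicate 1 and 31720365 in replicate 2. Its midpoint was 2509 bp downstream of the inner start and 3604 bp downstream of the outer one. The authors' fold enrichment there was 3.26 in replicate 1 and 4.19 in replicate 2 (3.72 ± 0.657, SD, n = 2), the widest gap between replicates among the 7.

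The next regions lay deeper in the gene. One had its summits at 31712983 and 31712886 in replicates 1 and 2, with a fold enrichment of 3.33 and 3.39. The broadest, at 31704619 to 31706653, covered 2035 bp and joined 3 peaks of replicate 1 with 1 peak of replicate 2, with summits at 31704890 and 31704969 and a fold enrichment of 3.30 and 3.0. Only the strongest peak of each library gives the value of a joined region. The region at 31699193 to 31699553 had summits at 31699388 and 31699385, 3 bp apart, with a fold enrichment of 3.35 and 3.06.

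By mean fold enrichment, the strongest of the 7 lay at 31696084 to 31696550, with summits at 31696252 and 31696326. It had a fold enrichment of 4.12 and 3.78 in replicates 1 and 2 (3.95 ± 0.237, SD, n = 2) and −log10 q values of 14.6 and 12.7. Even this region stood in the middle of the series by fold enrichment, at a mean percentile of 42.7 among the shared regions. In replicate 2 the region nearest the starts was higher, with a fold enrichment of 4.19 and a −log10 q of 12.8. The weakest, at 31678603 to 31679353 with summits at 31678836 and 31678969, had 2.80 and 2.67 and stood at percentile 2.18. The last region, at 31661758 to 31663073, lay outside the gene, 2055 bp past its 3′ end, with summits at 31662483 and 31662311 and a fold enrichment of 3.27 and 3.24. Of the 6 regions inside the span, 5 also lay inside BCL2L1-AS1, a long non-coding RNA gene within BCL2L1, and the assay cannot assign a region to either. Each replicate also had 1 peak of its own inside the gene, with a fold enrichment of 2.58 at summit 31675780 in replicate 1 and of 2.73 at summit 31686362 in replicate 2.

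The regions of BCL2L1 combined high fragment counts with a high background. The pileup, the number of overlapping fragments at the summit worked out from the deposited fold enrichment and p-value, was 34 to 57 (median 40) in replicate 1 and 40 to 56 (median 42) in replicate 2. Over all shared regions its medians were 21 and 22. The background, the pileup expected at the summit, was 9.74 to 13.7 in replicate 1 and 10.9 to 15.1 in replicate 2, above the medians of 4.20 and 4.52 over all shared regions. Medians at BCL2L1 were 12.3 and 13.3, which is 2.93-fold and 2.95-fold the medians over all. Each of the 7 lay at percentile 94.7 or higher of background in replicate 1 and at 95.1 or higher in replicate 2, while their fold enrichment had a median percentile of 12.7. The other 422 shared regions of chromosome 20 had median backgrounds of 5.15 and 5.75. Provided that peaks were called without a control library, on which the sources are silent, this background counts the library's own reads around the summit. The parts of neighbouring peaks and of DNA copy number in it were not tested.

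**Figure D2:**
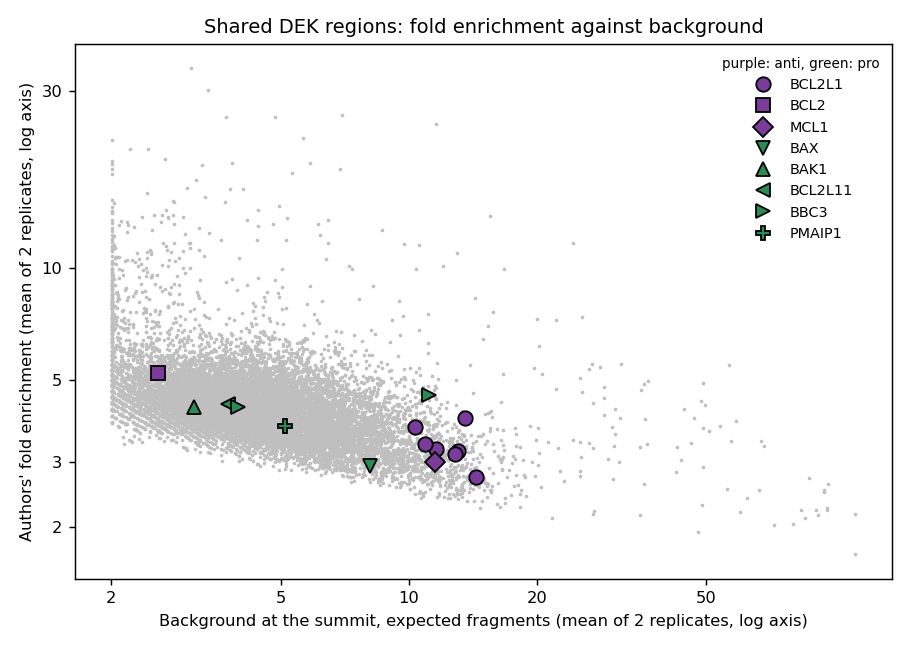
Authors' fold enrichment against background at the summit, both as means of 2 replicates on log axes, for all shared regions (grey) and those of the members (purple anti-apoptotic, green pro-apoptotic). The regions of BCL2L1, with MCL1 and 1 region of BBC3, sit at the high-background side, and BCL2 sits at the low-background side with the highest fold enrichment of the members, 5.20.

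The neighbourhood of BCL2L1 was uneven. The 100 kb below the window, with ID1, COX4I2 and part of HM13, held 5 shared regions and the 100 kb before that held 3. The 100 kb above it, with TPX2 and part of MYLK2, held 1, and the following pair of bins held 2 each. Of the 10 bins of 100 kb below the window 6 held none, and of the 10 above it 4 held none. None of these bins was as dense as the window itself, which was chosen with its peaks already known. The background at the regions in the 100 kb just below had medians of 8.38 and 9.26 in replicates 1 and 2. Over all neighbouring bins with a region, the medians ran from 3.04 to 11.4 in replicate 1 and from 3.57 to 13.5 in replicate 2. The highest were those of the bin that follows the 100 kb just above, beside 12.3 and 13.3 at BCL2L1.

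**Figure D3:**
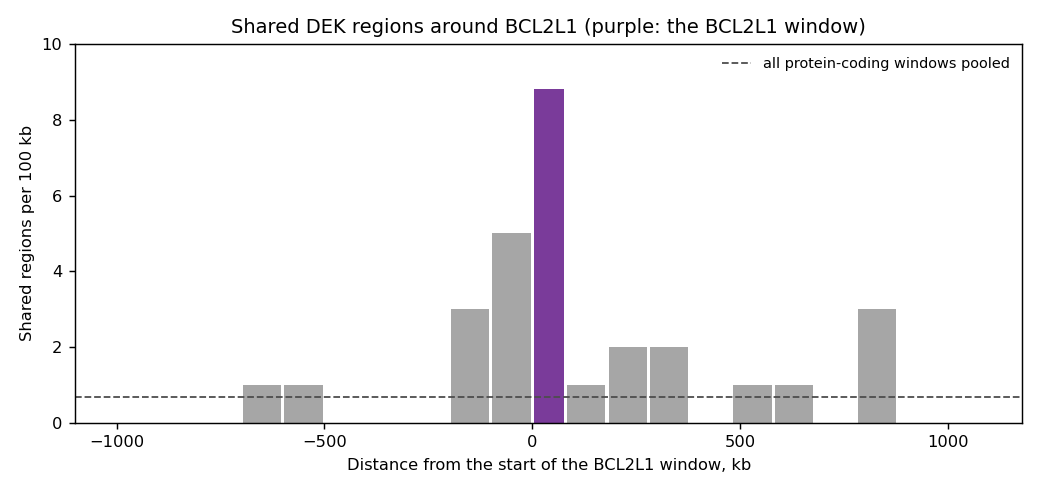
Shared DEK regions per 100 kb in the BCL2L1 window (purple) and in the bins of 100 kb on either side (grey), by distance from the start of the window in kb. The window had 8.80 per 100 kb and the densest neighbouring bin 5, and the dashed line marks 0.668 for all protein-coding windows pooled.

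Genes with a pattern most like that of BCL2L1 were sought by the distance over log2 window length and the log2 densities of shared regions and of the peaks of each replicate, among 6560 genes with all values. The nearest was IL6R on chromosome 1, with 7 shared regions in a window of 84.1 kb (distance 0.162). AHDC1, also on chromosome 1, had 8 in 89.98 kb (distance 0.184), and STK40 on chromosome 1 had 5 in 66.3 kb (distance 0.368).

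The other 4 anti-apoptotic genes held 2 shared regions between them. BCL2, the first known member of the family, had the longest gene of the set (chromosome 18, 63123346 to 63320090, minus strand) and 1 shared region in its window of 217 kb, or 0.461 per 100 kb (0.0117 to 2.57, exact Poisson). At 63161725 to 63162167, with summits at 63161843 and 63161911, it lay inside the gene, 157892 bp downstream of the RefSeq start. Its fold enrichment was 5.55 in replicate 1 and 4.84 in replicate 2 (5.20 ± 0.508, SD, n = 2), the highest of the members' regions, and its background of 2.42 and 2.72 the lowest. A further peak of replicate 1 alone, with its summit at 63198831, had a fold enrichment of 3.49.

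MCL1, which encodes a short-lived anti-apoptotic protein, had no peak inside the gene (chromosome 1, 150574558 to 150579610). Its shared region, at 150568208 to 150569504, lay 5562 bp below the gene's lower end, inside the long non-coding RNA gene ADAMTSL4-AS1 and over the pseudogene RN7SL600P. Replicate 1 had 2 peaks in it, and the strongest summits were at 150569106 and 150568887 with a fold enrichment of 3.15 and 2.84. The pseudogene resembles other copies of the 7SL RNA gene, and the sources used here do not give how reads with several matches were treated, so this region is uncertain. A second shared region ended 427 bp outside the window, at 150563143 to 150564131, with a fold enrichment of 2.89 and 3.05.

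BCL2L2 and BCL2A1 had no shared region. BCL2L2 (chromosome 14, 23306833 to 23311751) had 1 peak of replicate 2 alone, at 23321056 to 23321353, with a fold enrichment of 5.50 and a −log10 q of 6.26. It stood at percentile 93.2 of its library by fold enrichment, and its summit lay 242 bp before the start of the neighbour PABPN1, inside the read-through gene BCL2L2-PABPN1. BCL2A1 (chromosome 15, 79960892 to 79971196, minus strand), an anti-apoptotic gene known as an NF-kB target in blood cells, had no peak in either library. With a count of 0 the exact 95% Poisson interval reaches 12.2 shared regions per 100 kb in its window and 14.8 in that of BCL2L2. Both limits lie above the 8.80 of BCL2L1, so a count of 0 in windows this short does not exclude a density as high as that. Regions under the authors' threshold are not in the lists.

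The effectors had 1 shared region each. BAK1 (chromosome 6, 33572552 to 33580276, minus strand) had its region, 33580161 to 33580586, across the start, with summits 37 bp and 9 bp upstream of it in replicates 1 and 2 (33580313 and 33580285). The peaks covered 240 and 144 of the 250 bases printed above. A shared region over that stretch was present at 4.53% of the 15811 protein-coding genes with a start in the table. The replicates differed in strength there, with a fold enrichment of 3.48 in replicate 1 and 4.97 in replicate 2 (4.22 ± 1.05, SD, n = 2), pileups of 13 and 20 and −log10 q values of 2.46 and 6.60. It was the largest SD of the 15 regions. Single peaks of BAK1 lay 5414 bp below the gene in replicate 1 and 9887 bp above it, in LINC00336, in replicate 2.

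BAX (chromosome 19, 48954875 to 48961798, plus strand) had its shared region 6370 bp beyond the gene, at 48967799 to 48968680, where the summit midpoint lay 38 bp inside the end of GYS1. Summits at 48968011 and 48968326 were 315 bp apart, the widest gap of the 15 regions, and the fold enrichment was 3.01 and 2.82, at percentile 4.53 of the shared regions. Replicate 2 alone had a peak 433 bp past the 3′ end of BAX, with a fold enrichment of 3.05. No peak lay inside BAX or over its start.

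The BH3-only genes had 4 shared regions, and BBC3 held 2 of them. BBC3 (chromosome 19, 47220824 to 47232860, minus strand) had a region of 1447 bp inside the gene at 47228533 to 47229979, at percentile 99.5 of width among the shared regions. Its summits at 47229152 and 47229378 had pileups of 50 and 59, the highest in replicate 2 among the members, and a fold enrichment of 4.29 and 4.803 (4.55 ± 0.364, SD, n = 2). The −log10 q values of 13.4 and 18.5 were close to those of the strongest BCL2L1 region in replicate 1 and above every other member's in replicate 2. The midpoint lay 3402 bp downstream of the RefSeq start and 2244 bp from the microRNA gene MIR3190, which lies within BBC3.

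The other BBC3 region, at 47241474 to 47242478, lay in the long non-coding RNA gene LOC124904731, 8988 bp beyond the start side of BBC3. It joined 2 peaks of replicate 1 with 1 of replicate 2, with a fold enrichment of 4.14 and 4.29. This region ended 382 bp inside the window and was the closest to an edge, and the nearest left out was that of MCL1, 427 bp outside. With both, BBC3 had 6.24 shared regions per 100 kb (0.756 to 22.6, exact Poisson), and 6.90% of the 5076 genes with a window of similar length had as many. A peak of replicate 2 alone lay 1034 bp past the 3′ end of BBC3, with a fold enrichment of 3.62.

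BCL2L11 (chromosome 2, 111120914 to 111168445, plus strand) had a shared region inside the gene, 39896 bp downstream of its start, at 111160584 to 111161074. Summits were at 111160899 and 111160721 and the fold enrichment was 4.29 and 4.33 (4.31 ± 0.0334, SD, n = 2). Replicate 1 alone had a peak 179 bp past the 3′ end, with a fold enrichment of 4.5 and a −log10 q of 5.68, and another, with 3.32, that straddled the edge of the window. PMAIP1 (chromosome 18, 59899996 to 59904305, plus strand) had its region 654 bp past the 3′ end, at 59904798 to 59905126, with summits at 59904928 and 59904991. The fold enrichment there was 4.13 and 3.39 (3.76 ± 0.524, SD, n = 2). This region lay 4963 bp downstream of the start of PMAIP1, and neither gene had a peak over the 250 bases before its start.

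Of the 15 regions, 9 had their summit midpoint inside the member's gene and 6 outside it. Summits of the replicates lay within 100 bp of each other in 9, with a median gap of 79 bp against 69 bp over all shared regions. Regions of at least 1 kb made up 5 of the 15, at BCL2L1, MCL1 and BBC3, against 3.61% of all shared regions. Both −log10 q values reached 5 in 9 of the 15, of which 6 were at BCL2L1, against 38.6% of all. Outside BCL2L1 it was 3 of 8 regions, at BCL2, BCL2L11 and BBC3. The set was proposed with the peaks of BCL2L1 known, and regions of 1 gene are not independent of each other. Nothing is therefore read from these shares beside those of all shared regions.

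Replicate sharing was described for the peaks in the windows. Of the members' peaks, 19 of 24 of replicate 1 (79.2%, 95% Wilson interval 59.5 to 90.8) and 15 of 20 of replicate 2 (75.0%, 53.1 to 88.8) overlapped a peak of the other replicate. Over all peaks the shares were 67.8% and 52.2%. At BCL2L1 alone 9 of 10 and 7 of 8 were shared, and without BCL2L1 10 of 14 (71.4%, 45.4 to 88.3) and 8 of 12 (66.7%, 39.1 to 86.2). The peaks of BCL2L1 were known when the set was proposed, and peaks of 1 gene are not independent of each other. Nothing is therefore read from the members' shares beside those of all peaks. Peaks seen in 1 library only numbered 5 in each replicate.

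Anti- and pro-apoptotic members were then set side by side. The 5 anti-apoptotic windows held 9 shared regions in 377 kb, or 2.39 per 100 kb (1.09 to 4.54, exact Poisson), and the 5 pro-apoptotic windows held 6 in 179 kb, or 3.36 (1.23 to 7.32). The intervals overlap widely. All 5 pro-apoptotic genes had a shared region, and 3 of the 5 anti-apoptotic ones did, against 32.9% of all protein-coding genes. Nothing is read from this split, since the peaks were in view when the set was proposed. By replicate, the anti-apoptotic windows had 3.72 and 2.92 peaks per 100 kb and the pro-apoptotic ones 5.60 and 5.04 in replicates 1 and 2. All protein-coding windows pooled had 1.02 and 1.29.

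The direction of this difference rested on a few genes and settings. Without BCL2L1 the anti-apoptotic density was 0.673 (0.0815 to 2.43), against 3.36 in the pro-apoptotic windows. Without BCL2, whose window makes up most of the anti-apoptotic length, it was 5.01 (2.16 to 9.87), and the sign of the difference turned. It also turned with peaks of −log10 q 5 or more (1.86 against 1.12), with the 5000 peaks of lowest p (0.797 against 0.560) and with 50% reciprocal overlap (1.86 against 1.12). No stable difference in density between the anti- and pro-apoptotic members was found in these counts. Fold enrichment differed in median between the groups, 3.26 over the 9 anti-apoptotic regions and 4.22 over the 6 pro-apoptotic ones, with background medians of 11.2 and 12.4 against 4.44 and 4.66 in replicates 1 and 2. Of the 9, 7 belong to BCL2L1, and the other 2 had 5.20 at BCL2 and 2.995 at MCL1.

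**Figure D4:**
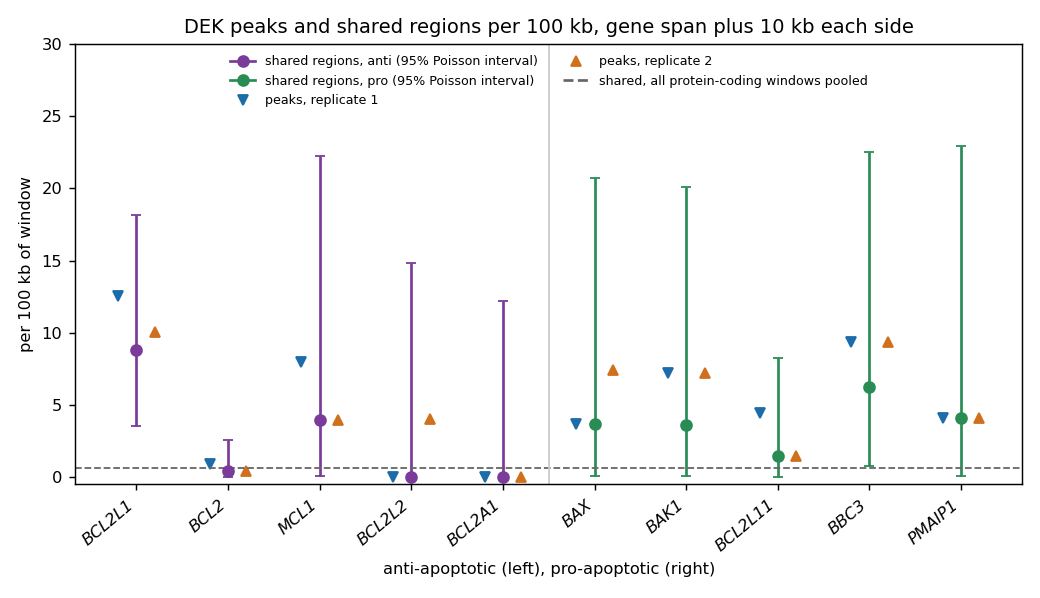
Peaks of replicate 1 and replicate 2 and shared regions per 100 kb of window for each member, with exact 95% Poisson intervals for the shared regions (counting error only), anti-apoptotic genes left of pro-apoptotic genes. BCL2L1 had 8.80 shared regions per 100 kb, and in the short windows a single region comes to about 4 per 100 kb with an interval that reaches above 20.

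Window length limits what a density shows. For the 6 members with a single shared region, 22.4% to 49.2% of the genes with a window of similar length had at least 1, the lowest at PMAIP1 and the highest at BCL2. A single region in a window as short as that of PMAIP1 came to 4.11 per 100 kb (0.104 to 22.9, exact Poisson), and that of BCL2L11 to 1.48 (0.0375 to 8.25). The intervals of these 6 genes overlap one another, so no order among them is given.

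**Figure D5:**
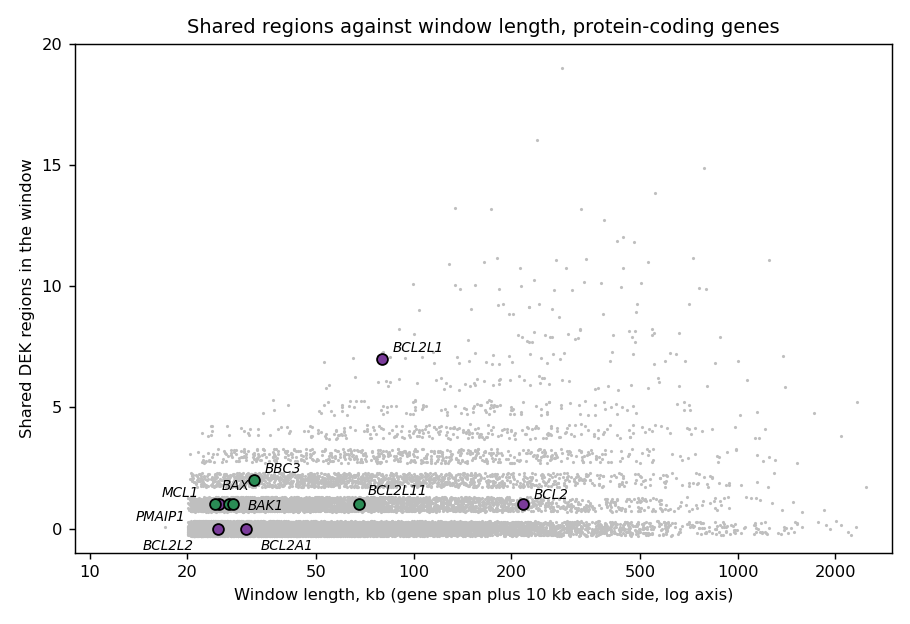
Shared DEK regions against window length in kb (log axis) for protein-coding genes (grey, spread vertically by up to 0.3 to part the points) and the members (purple anti-apoptotic, green pro-apoptotic). BCL2L1 lies above most genes of its length with 7 regions, and the other members lie at 0 to 2.

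Other genes of the pathway were taken from lists that were chosen with earlier results of these data known. A further list, not reported here, had a share of genes with a shared region below that of all genes. The shares of the lists are therefore a description, and nothing is read from them beside that of all genes. Of 13 further genes of the BCL2 family, 7 had a shared region in their window (53.8%, against 32.9% of all genes), with a median of 1 region against 0. BCL2L13, a mitochondrial outer membrane protein, had 3, and the pro-apoptotic BOK had 2. BMF, BAD and BID, which are BH3-only, and BCL2L12 and BNIP3 had 1 each. BMF had the highest fold enrichment of these, 4.81 in replicate 1 and 6.34 in replicate 2 (5.58 ± 1.08, SD, n = 2). BCL2L10, BCL2L14, BCL2L15, BIK, HRK and MOAP1 had none.

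In the list of apoptosome and mitochondrial genes, 5 of 13 had a shared region (38.5%, against 32.9% of all genes), with a median of 0. VDAC1, a channel of the outer membrane, had 4 in a window of 163 kb. CYCS, which encodes cytochrome c, DIABLO, CASP9 and HTRA2 had 1 each, while APAF1 had none. Of the 7 inhibitor genes, 3 had a region (42.9%, against 32.9%). CFLAR, which encodes the caspase-8 inhibitor c-FLIP, had 5 (6.21 per 100 kb, strongest fold enrichment 4.55 and 4.94), BIRC3 and BIRC7 had 1 each, and XIAP and BIRC5 had none.

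Death receptor genes had a shared region in 7 of 10 cases (70.0%, against 32.9% of all genes), with a median of 1. CASP8 and TNFRSF10B had 3 each, and TNFRSF1A and CASP10 had 2 each. CFLAR, CASP10 and CASP8 are neighbours on chromosome 2, and their windows held 9 distinct regions within 192 kb, with 1 counted for more than 1 gene. BID, which links death receptors to the mitochondrion, is in this list and in that of the family.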

How the data were processed

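DEK ChIP-seq peaks of 2 replicates of 1 group were taken from the authors' deposited lists, 1 per library. Per the submitters' processing notes the build was GRCh38 (hg38), and the tools were MACS2 2.2.7.1, Bowtie2 2.2.5, deepTools 3.5.1, cutadapt 1.18, ChIPseeker 1.32.1 and DiffBind 3.6.5, with no roles stated. Control libraries and read depths are not given in the sources used here. Each deposited peak has the authors' fold enrichment (a ratio at the summit within 1 library), −log10 p, −log10 q, a score and a summit offset. These values ranked peaks within a list.

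Only chromosomes 1 to 22 and X were kept, in Python 3.11.15 with pandas 2.3.3, NumPy 2.4.6 and SciPy 1.17.1, which left out 0.591% and 0.5% of the peaks. Shared regions join peaks that overlap by at least 1 bp, and take the strongest peak of each library. Pileup and background were solved for a whole-number pileup, with fold enrichment read as (pileup + 1) / (background + 1) and p as a Poisson tail, a form assumed from the caller and met within a relative tolerance of 5e-05 in all but 1 peak of each library. Counting and solving were tested on simulated data. Gene spans and starts are RefSeq (GRCh38.p14), with 1 span per gene and no exons, so exonic and intronic summits were not told apart.

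Densities have exact 95% Poisson intervals and shares 95% Wilson intervals, which cover counting error only. No hypothesis test was run. The members, lists and settings were chosen with earlier results of these data known. All 10 members are named, all further family genes, up to 4 of each other list by number of shared regions, the genes nearest to shared summits, the neighbours of BCL2L1 and the 3 genes most like it. Other named genes (HTRA2, APAF1, XIAP, BIRC5 and the neighbours at single peaks) were chosen after their values were seen. One further list, in which the share of genes with a shared region lay below that of all genes, and some list genes are not reported here. Of 7 genes fixed as markers of the line, 6 had a shared region in their window, against 32.9% of all protein-coding genes, which is no measure of expression.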

Additional observations from a re-analysis of the deposited data

How the results depend on the processing

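The count of members with a shared region was 8, against 32.9% of all protein-coding genes. It was 5 with the gene span alone (22% of all genes under the same setting), 4 with −log10 q of at least 5 (15.5%), 2 with the 5000 peaks of lowest p (9.22%), 4 with 50% reciprocal overlap (27.1%), 5 with summits within 100 bp (24.5%) and 0 with a fold enrichment of at least 5 (3.48%). With 1 replicate left out, genes with a peak of the other replicate were counted. These were 8 members without replicate 2 (43.5% of all genes) and 9 without replicate 1 (49.7%). The 7 shared regions of BCL2L1 numbered 3 with the 5000 peaks of lowest p, 0 at 5-fold or more and 5 to 8 under 7 other settings. With 1 replicate left out, the peaks of the other replicate were counted, 8 to 10.

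The difference in shared regions per 100 kb, anti-apoptotic minus pro-apoptotic, was -0.971. It was -1.29 with the gene span alone, -0.662 with 5 kb, -0.0416 with 25 kb, -0.0869 with summits within 100 bp, -0.0155 with summits inside the span, -2.69 without BCL2L1, -3.25 by medians and -0.239 over the wider family. It was 0 at 5-fold or more, where neither group had a region. With 1 replicate left out, the difference was in peaks of the other replicate per 100 kb, -2.12 to -1.88. The difference in shared regions turned to 0.739 with −log10 q of at least 5 and again with 50% reciprocal overlap, 0.237 with the 5000 peaks of lowest p and 1.65 without BCL2.

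The shared percentage of the members' peaks in replicate 1, 79.2, was 37.5 under 50% reciprocal overlap or a summit gap of at most 100 bp, 57.1 with the 5000 peaks of lowest p and 0 at 5-fold or more. That of replicate 2, 75.0, was 45.0 with either matching rule, 90.9 with the gene span alone and 0 at 5-fold or more, where 1 peak of each replicate was left. Shares of all peaks under the same settings are not given here. These changes can therefore not be compared with those of the whole series. The cause was not tested. No paired analysis was possible because there is 1 group. With medians of 19 fragments at a summit, weak binding can be missed.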
